A study of Rhagoletis pomonella with 50 samples.

Results

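The central nervous system (CNS) of apple pupae of the fly Rhagoletis pomonella was compared between 5 and 3 months of cold. The members were the 5 libraries labelled apple at 5 months and the 5 labelled apple at 3 months, which made 10 of the 50 libraries in the series. They were described across all expressed features, where a feature is 1 gene entry of the authors' annotation. The other 40 libraries came from apple pupae at 2, 4 and 6 months and from hawthorn pupae at 2, 3, 4, 5 and 6 months. Each library was made from RNA of 10 pooled CNS, with 5 pools in each of the 10 groups of host and month.

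Both apple groups were R. pomonella whose larvae had left infested apple fruit gathered at 1 Illinois locality, and no strain, sex or other treatment is named. The larvae were kept at 24 °C with 14 h of light and 10 h of dark for 10 days, over which they pupated and entered diapause. The pupae were then moved to 3.5 °C at 95% relative humidity and dissected by the month. Among the labelled conditions of the pupae, the groups differ only in diapause age, 3 or 5 months. Their run labels also differ in lane and index, as given below. It is not stated whether the months of diapause age count from pupation or from the move to 3.5 °C. They are called months of cold here. The hawthorn groups differ in the fruit, and their pupae had the same temperatures. A library is thus an average over 10 pupae from 1 site and season, and tests measured the spread between such pools.

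Diapause is a programmed arrest of development with lowered metabolism, which the insect enters before the winter and leaves only after a long time in the cold. In fly pupae the brain takes part in ending it, since brain neurosecretory cells release the hormone that drives ecdysone production, and ecdysone restarts adult development. The apple and hawthorn populations of R. pomonella are a textbook case of host races, and the apple race leaves diapause earlier in the year, as its fruit ripens earlier. The comparison of 5 with 3 months asks which transcripts of the apple CNS differed between the middle and the later part of the cold period.

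Features are listed under numbered identifiers, and nothing in the deposited data links an identifier to a gene name. A reference table of R. pomonella genes, made on a different assembly, held 0 of the 29399 feature identifiers and 0 of the 39273 transcript identifiers. No name, role, position or sequence is therefore given to a feature, and the tissue label could not be checked against markers of neurons, glia or other cell types. The features are described by their direction, size, level, transcript length and course over the months, and a few are given by identifier.

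The 3-month libraries held 19416109 ± 2876246 expected counts (SD, n = 5, range 14976846 to 22131378) and the 5-month libraries 13907306 ± 1975550 (range 10857263 to 15630494). Expected counts are read counts estimated by the authors' counting program and need not be whole. In some of the 10 libraries 20248 of the listed features reached an expected count of 1, and 13862 passed the filter on low counts and were tested. Of the 3-month libraries, 1 was sequenced in lane 3 and 4 in lane 5, and of the 5-month libraries 3 were in lane 5 and 2 in lane 6. The months shared 0 of their first index sequences, so index and month cannot be told apart. Hawthorn replicates 2 and 4 at 4 months, which stood apart from the other libraries of the series in their length trend, entered the shared estimate of the spread. The count of called features is therefore given with and without them.

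From 3 to 5 months 270 of the 13862 tested features changed in apple pupae, which is 1.95% of them. Of these, 101 rose (0.729%) and 169 fell (1.22%), by edgeR's quasi-likelihood test at an adjusted p under 0.05. The changes were modest, with a median absolute log2 fold change of 0.75 over the 270, which is 1.68-fold. Among the risers 23 changed at least 2-fold and 29 less than 1.5-fold. Among the fallers the counts were 40 and 41. In 69 of the 101 risers and 126 of the 169 fallers the 5 values of one month all lay beyond the 5 of the other. Over all tested features this held for 264 higher at 5 months (1.9%) and 395 lower (2.85%), which makes 4.75% together. Since the call used these same values, the non-overlap is a description of the called features. In RNA of whole tissue, fewer cells of a type and less RNA per cell cannot be told apart.

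The 270 features kept the sign of their change in all the fits that could test them. Those fits reused libraries on which the features were chosen, so the kept sign describes them and is not an independent check. The number of calls depended strongly on the libraries and on how the spread was estimated. It was 138, 94, 135 and 159 without 3-month replicates 2, 3, 4 and 5, and 91, 132 and 125 without 5-month replicates 1, 3 and 4. It was 704 without the pair of outlying hawthorn libraries (318 higher, 386 lower), 123 with lane as a term and 73 when the apple libraries of 3 and 5 months were fitted alone. With the length trend of each library as a term, 641 features were called, of which 311 were higher and 330 lower, so the excess of fallers was smaller. Lane 5 alone held 4 of the 3-month and 3 of the 5-month libraries. Of the 12638 features tested there, 3 were called and 1969 had an unadjusted edgeR p under 0.05. In the main fit 2138 of the 13862 had such a p. Of the called features 262 could be tested in lane 5 alone, and all kept their sign there. Their median log2 change was 0.75 in the direction of the call. As the features were chosen partly on these same libraries, neither value tests for an effect of lane.

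**Figure D1:**
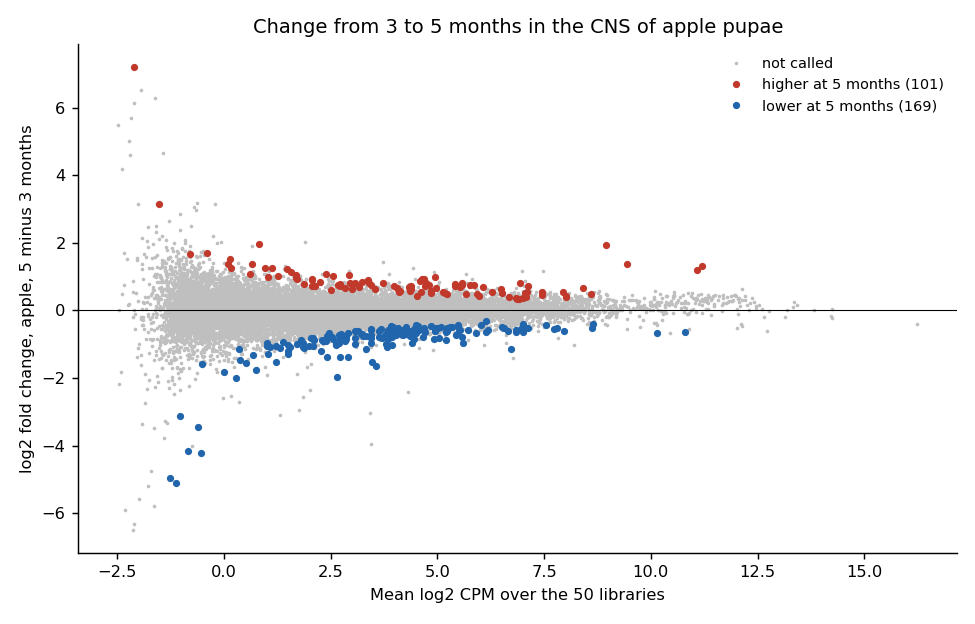
Each point is 1 of the 13862 tested features, with its mean log2 CPM over the 50 libraries on the horizontal axis and the log2 fold change of apple pupae, 5 minus 3 months, on the vertical axis. The 101 risers are red and the 169 fallers blue, and most of them changed by less than 2-fold.

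The risers and fallers differed in level and in transcript length. Levels between features were compared in TPM (transcripts per 1000000), which accounts for length. The risers had a median of 12.7 TPM over the 10 libraries and the fallers 5.90 TPM, beside 3.66 TPM over all tested features. Of the risers, 48.5% were among the highest 3466 of the tested features by TPM, and of the fallers 24.3%. In that class 49 of 3466 features rose and 41 fell, while in the next class below it, 20 of 3465 rose and 68 fell. Among the lowest 3466 there were 13 risers and 9 fallers, and low levels also give the test less precision.

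The fallers had longer transcripts, with a median of 2350 bp against 1700 bp in the risers and 1649 bp over all tested features. Among the longest 3466 features, from 2630 bp upwards, 69 features fell and 24 rose. Among features from 1023 to 1649 bp 28 fell and 35 rose. Features with at least 2 annotated transcripts made up 40.2% of the fallers and 20.8% of the risers, beside 3829 of all 13862 tested features. Of those 3829, 1.78% fell and 0.548% rose, and of the features with 1 transcript 1.01% fell and 0.797% rose. The length slope of a library, which measures how far longer transcripts stood above or below their mean level, was -0.00242 ± 0.0544 at 3 months and -0.0179 ± 0.0748 at 5 months (SD, n = 5). The slopes of the months overlapped, and a two-sided exact permutation test of the means gave p = 0.730. The part of the slope in the length difference between risers and fallers was not tested beyond the count given above with the slope as a term.

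The largest rise among features whose groups did not overlap and whose mean log2 CPM reached 1 was in gene1174. CPM are counts per 1000000 of the scaled library total. In the 3-month replicates 1 to 5 it stood at 934, 488, 501, 583 and 996 CPM. In the 5-month replicates it stood at 2285, 1447, 1715, 2641 and 997 CPM. The lowest library of 5 months lay barely above the highest of 3 months, and the rest of the 5-month libraries were well above it. The log2 fold change was 1.38 (SE 0.371, edgeR adjusted p = 0.0377). Its level was 894 ± 325 TPM at 3 months and 1993 ± 418 TPM at 5 months, and it has 1 transcript of 921 bp.

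At the other months gene1174 ranged from 110 to 315 CPM at 2 months, from 387 to 782 at 4 months and from 246 to 1309.9 at 6 months. Its levels at 3, 4 and 6 months overlapped, and the 5-month group stood above the means of all of them. In hawthorn pupae it held 905 ± 309.7 CPM at 3 months and 739 ± 142 CPM at 5 months (SD, n = 5), and was not called there (log2 fold change -0.29, edgeR adjusted p = 0.727). The difference between hosts in its change was 1.67 on the log2 scale (SE 0.519) and did not pass the test (adjusted p = 0.178). The apple call was lost in 6 of the 10 fits that left out 1 library, with log2 fold changes from 1.20 to 1.53 and adjusted p up to 0.118.

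The next largest rise was in gene6377, a feature of low level with 1 transcript of 2353 bp. Its 3-month replicates held 1.13, 1.87, 2.19, 0.974 and 1.66 CPM, from 21 to 50 reads each. Its 5-month replicates held 4.73, 4.38, 3.49, 3.39 and 2.90 CPM, from 37 to 65 reads each. All 5-month libraries were above all 3-month libraries. The log2 fold change was 1.27 (SE 0.342, edgeR adjusted p = 0.0377), and the call was lost in 9 of the 10 fits that left out 1 library, at adjusted p up to 0.119. The 4-month libraries, from 1.30 to 2.77 CPM, and the 6-month libraries, from 1.36 to 2.99 CPM, overlapped those of 3 months. In hawthorn pupae the means were 2.24 ± 0.699 and 3.07 ± 0.960 CPM at 3 and 5 months, and the change was not called (adjusted p = 0.53).

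The largest fall under the same rule was in gene5831, which has 4 transcripts. The 3-month replicates held 15.6, 9.67, 11.2, 16.9 and 4.84 CPM, and the 5-month replicates 3.28, 2.69, 3.39, 1.86 and 3.68 CPM. The groups did not overlap, and 3-month replicate 5 was the lowest of its group. The log2 fold change was -1.96 (SE 0.351, edgeR adjusted p = 0.00181). The call held in all 10 fits that left out 1 library, with log2 fold changes from -2.16 to -1.79 and adjusted p up to 0.0116. In lane 5 alone it was -1.77 with an adjusted p of 0.119.

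Over the months gene5831 went from 20.7 ± 3.42 CPM at 2 months to 11.6 ± 4.86 at 3 months, 5.37 ± 0.775 at 4 months, 2.98 ± 0.724 at 5 months and 4.62 ± 1.77 at 6 months (SD, n = 5 each). Its 4-month libraries, from 4.27 to 6.33 CPM, all lay above the 5-month libraries, whereas those of 6 months, from 2.63 to 7.504 CPM, overlapped them. It also fell from 2 to 6 months in other apple libraries (log2 fold change -2.16, edgeR adjusted p = 1.21e-05). In hawthorn pupae it held 9.08 ± 3.68 and 6.87 ± 1.63 CPM at 3 and 5 months and was not called (adjusted p = 0.569), and the difference between hosts did not pass the test (-1.56, adjusted p = 0.171).

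The second fall was in gene292, with 3 transcripts. Its 3-month replicates held 9.78, 9.32, 29.6, 15.2 and 9.67 CPM, and its 5-month replicates 3.93, 4.38, 5.75, 3.31 and 6.04 CPM. The groups did not overlap, and 3-month replicate 3 was well above the rest of its group. The log2 fold change of -1.65 (SE 0.443, edgeR adjusted p = 0.0377) became -1.23 without that library and lost its call (adjusted p = 0.175), as it did in 6 of the 10 such fits. Its 5-month level was a low between higher months, since the 6-month libraries ranged from 9.57 to 82.7 CPM and those of 2 months from 14.2 to 67.4 CPM. From 2 to 6 months it was not called (log2 fold change -0.13, adjusted p = 0.873). In hawthorn pupae gene292 held 6.68 ± 1.91 and 9.45 ± 3.40 CPM at 3 and 5 months (SD, n = 5). It was not called there (log2 fold change 0.49, edgeR adjusted p = 0.594). The difference between hosts in its change was -2.15 on the log2 scale (SE 0.617) and did not pass the test (adjusted p = 0.145).

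**Figure D2:**
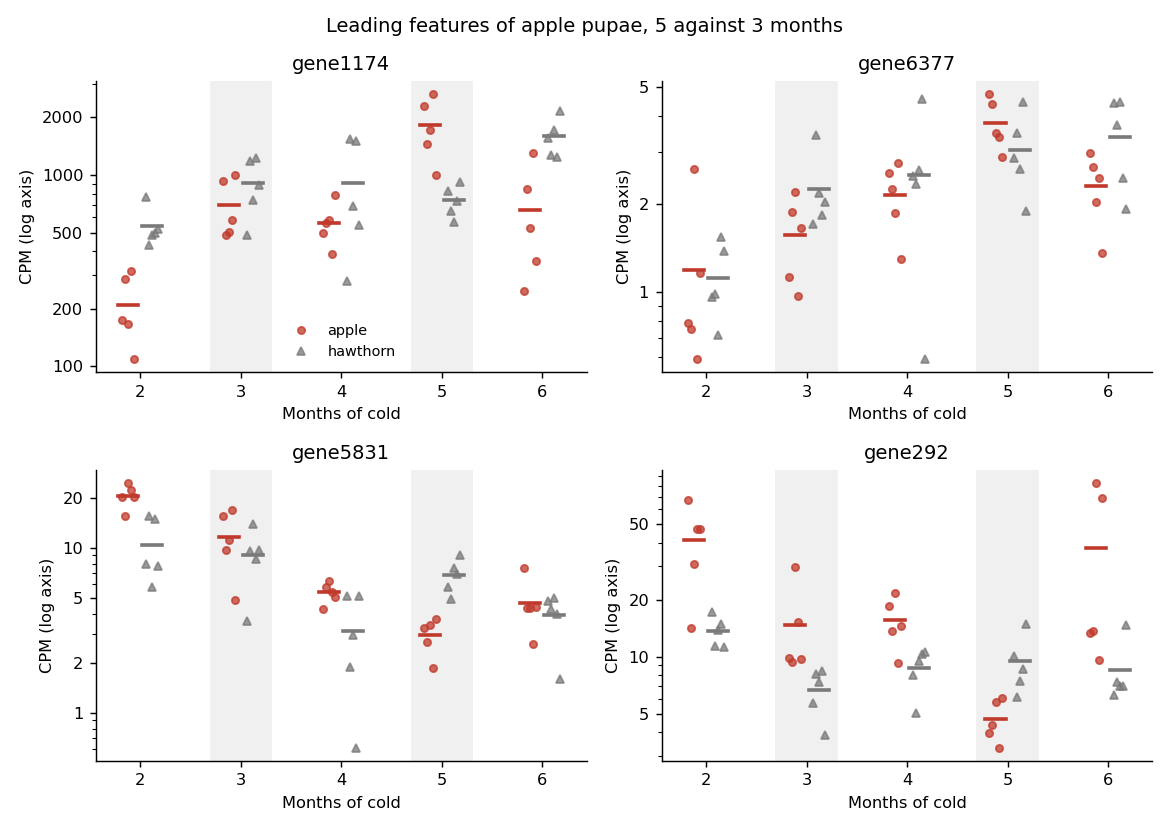
CPM on a log axis of the 4 leading features in each library by months of cold, with apple libraries as red circles, hawthorn libraries as grey triangles and bars at the group means. In the shaded months of 3 and 5 the apple groups of 5 libraries do not overlap, and gene292 returns to values from 9.57 to 82.7 CPM at 6 months.

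Under the rule that picked these 4, 62 risers and 120 fallers had non-overlapping groups and a mean log2 CPM that reached 1. The log2 fold changes of the first 10 risers lay between 0.99 and 1.38, and their 5-month means between 2.84 and 1817 CPM. The first 10 fallers changed in size by 1.15 to 1.96 on the log2 scale, and their 3-month means lay between 3.05 and 176 CPM. The leading changes were thus spread over rare and abundant transcripts.

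The risers took a small part of each library, which was larger at 5 months. They held 0.959 ± 0.119% of all counts at 3 months and 1.93 ± 0.437% at 5 months (SD, n = 5). The 3-month replicates 1 to 5 held 0.965, 0.946, 0.910, 0.824 and 1.15%, and the 5-month replicates 2.11, 1.68, 2.27, 2.30 and 1.28%. At 2, 4 and 6 months the means were 0.639%, 1.05% and 1.22%. The fallers went from 1.002 ± 0.0277% at 3 months to 0.630 ± 0.0503% at 5 months, after 1.26% at 2 months and 0.875% at 4 months and before 0.840% at 6 months. In hawthorn pupae the risers of apple held 1.02 ± 0.126% at 3 months and 1.12 ± 0.0881% at 5 months. The 3- and 5-month shares in apple describe features chosen on those libraries, and the other months and the hawthorn libraries enter the choice only through the filter, the scaling and the shared spread. A few abundant features weigh most in such shares. Of the risers, 4 had a mean of at least 1000 CPM over the 10 libraries. The most abundant of them went from 2562 ± 789 CPM at 3 months to 6420 ± 2564 CPM at 5 months (SD, n = 5).

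The 3-month libraries were more alike than the 5-month ones, which by median correlation were no more alike than libraries of different months. Pearson's r of log2 CPM across features, which are not independent replicates, had a median of 0.971 over pairs of 3-month libraries, 0.953 over pairs of 5-month libraries and 0.959 between the months. On the first principal component of the 10 libraries (26.4% of the variance) the 3-month libraries lay between -37.8 and 1.64. Replicates 1, 3 and 4 of 5 months lay at 38.6, 38.7 and 59.5, and replicates 2 and 5 at -26.8 and -23.4, within the range of 3 months. The risers followed the same split. The median riser stood 0.84, 0.72 and 0.82 above the 3-month mean on the log2 scale in 5-month replicates 1, 3 and 4, and 0.59 and 0.52 above it in replicates 2 and 5. The median faller stood at -0.74, -0.72, -0.74, -0.74 and -0.65 in replicates 1 to 5. The length slopes of the 5-month libraries split in the same way. They were -0.0396, -0.0413 and -0.120 in replicates 1, 3 and 4, and 0.0444 and 0.0665 in replicates 2 and 5. In the 3-month replicates 1 to 5 the slopes were 0.0502, -0.0718, 0.0493, 0.00212 and -0.0419. The part of the length slope in the split of the 5-month libraries was not tested. The number of calls fell to 91, 132 and 125 without replicates 1, 3 and 4, and was 230 and 254 without replicates 2 and 5.

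Among 7 measures of whole libraries, the share of the 20 most abundant features had the smallest p. It was 30.6, 29.1, 30.9, 30.2 and 29.6% in the 3-month replicates and 26.9, 28.3, 24.1, 25.7 and 28.3% in those of 5 months. The groups did not overlap. The means were 30.1 ± 0.749% and 26.6 ± 1.80% (SD, n = 5), and the two-sided exact permutation p of 0.00794 is the smallest that 5 against 5 libraries allow. After adjustment over the 7 measures it was 0.0556, which misses the threshold. The total count was lower at 5 months (exact permutation p = 0.0238, adjusted 0.0833). The first component (exact permutation, adjusted p = 0.278) and the other 4 measures (adjusted p from 0.681 to 0.810) did not pass either. The part of depth in the calls was not tested.

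**Figure D3:**
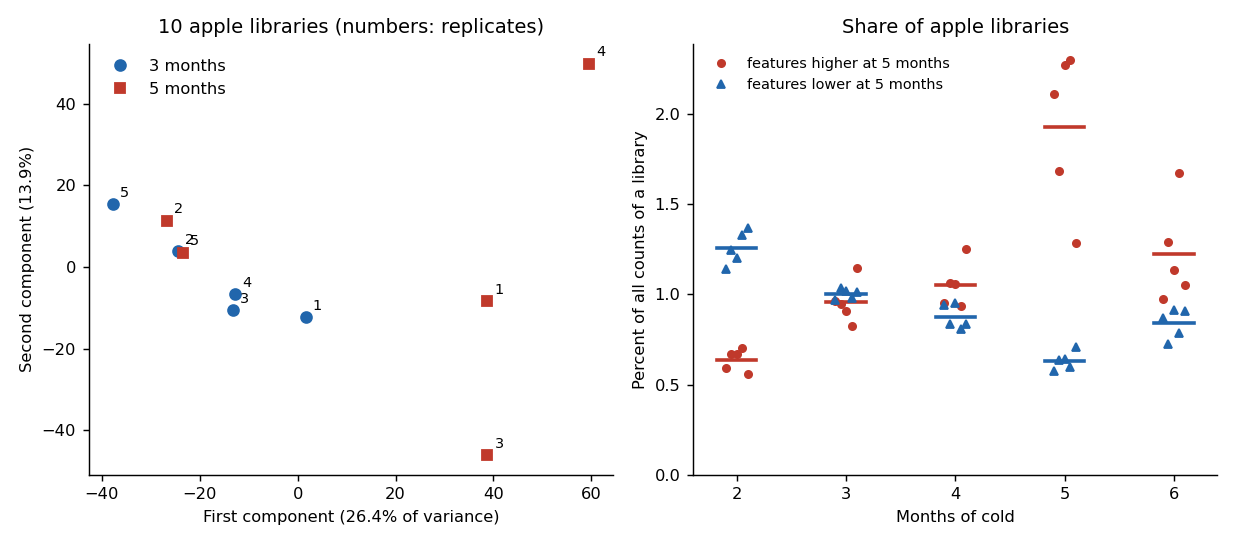
The left panel places the 10 apple libraries of 3 months (blue circles) and 5 months (red squares) on the first and second principal components of log2 CPM, numbered by replicate. The right panel gives the percent of all counts held by the 101 risers (red circles) and the 169 fallers (blue triangles) in each apple library by month, with bars at the means of 1.93% and 0.630% at 5 months.

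The 4-month libraries of apple lay between the groups for most of the called features. Their values are not in the fold change of 5 against 3 months, but they enter the filter, the scaling and the shared spread behind the calls. The 4-month mean was between those of 3 and 5 months for 87 of the 101 risers and 128 of the 169 fallers. Over all tested features this held for 35.8%, although the called features have a wider gap between the months by choice. Relative to the mean of apple at 2, 4 and 6 months, the median riser went from -0.36 at 2 months and -0.29 at 3 months to 0.07, 0.42 and 0.28 at 4, 5 and 6 months on the log2 scale. The median faller went from 0.38 and 0.24 to -0.16, -0.50 and -0.21. Choice on the values of 3 and 5 months favours a far point at 5 months in apple. In hawthorn, whose fold change was not used for the choice, the medians at 3 months were -0.02 and -0.09. They were 0.29 and -0.38 at 4 months, where the group holds the outlying replicates 2 and 4. At 5 months the hawthorn medians were 0.21 and -0.33, and the far point was 6 months, at 0.45 and -0.50.

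For single features the 5-month mean was the highest of the 5 apple months in 67 of the 101 risers, and the 6-month mean in 33. It was the lowest in 113 of the 169 fallers, with the 6-month mean lowest in 45. Over all tested features 5 months was the highest month in 22.1% and the lowest in 24.5%, and the choice of the called features raises both shares. Between 5 and 6 months 68 risers (67.3%) and 123 fallers (72.8%) turned back towards the 3-month level, beside 63.1% of all tested features. In 6 risers (5.94%) and 26 fallers (15.4%) the 6-month mean had passed the 3-month mean again, beside 34.7% of all tested features. A steady course in 1 direction from 2 to 6 months was found in 19 risers (18.8%) and 15 fallers (8.88%), beside 5.36% of all. The choice for a gap between 3 and 5 months also bears on the shares that turned back, passed the 3-month mean or ran steadily. Their distance from the shares over all tested features is therefore a description.

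**Figure D4:**
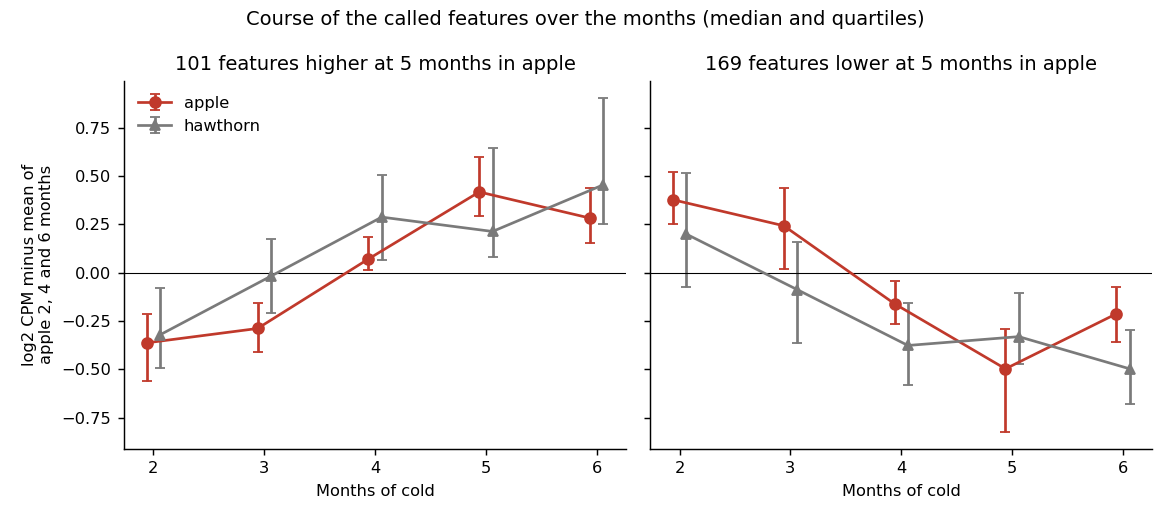
Median and quartiles, over the 101 risers (left) and 169 fallers (right) of apple, of log2 CPM relative to the mean of apple at 2, 4 and 6 months, by months of cold. Apple (red) reaches 0.42 and -0.50 at 5 months, where hawthorn (grey) stands at 0.21 and -0.33.

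Apple pupae of 6 and 2 months share no library with those of 5 and 3 months, though all enter the same fit. The apple libraries of 2 months were in lanes 2 and 3 and those of 6 months in lanes 6 and 7. Lane and month cannot be told apart between them, and later apple months were in later lanes in both comparisons. From 2 to 6 months 2164 features were called (15.6%), 1299 higher (9.37%) and 865 lower (6.24%). Of the 101 risers from 3 to 5 months 98 had a positive log2 fold change from 2 to 6 months, with a median of 0.63. Of the 169 fallers 154 had a negative one, with a median of -0.61. Together that is 93.3% with the same sign, beside 65.3% over all tested features. Of the 270 features, 158 were called in the same direction and 0 in the opposite one (2 with an opposite sign had an unadjusted p under 0.05). The 158 are 58.5% of the 270 and 7.30% of the 2164. With lane as a term 354 features were called from 2 to 6 months.

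Hawthorn pupae showed most of the same directions from 3 to 5 months, in libraries that do not enter the apple fold change. Of the hawthorn libraries of 3 months, 3 were in lane 1, 1 in lane 2 and 1 in lane 6. Of those of 5 months, 1 was in lane 2 and 4 in lane 3. Only lane 2 was shared, by 1 library of each month, so lane and month can hardly be told apart in hawthorn. In hawthorn 345 features were called (2.49%), 222 higher (1.6%) and 123 lower (0.887%). Of the apple risers 77 of 101 were also higher in hawthorn at 5 months, with a median log2 fold change of 0.31. Of the apple fallers 117 of 169 were also lower, with a median of -0.23. The same sign was found in 71.9% of the 270 and in 54.7% of all tested features. The medians in hawthorn were smaller than those in apple, which were 0.75 and -0.75 in the libraries used for the choice, and choice on a measure widens it there.

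Both hosts called 42 features in the same direction, 22 higher and 20 lower. They are 15.6% of the 270 apple calls and 12.2% of the 345 hawthorn calls. The count of hawthorn calls was 160, 216, 181 and 161 without 3-month replicates 1, 2, 3 and 4, and 155, 192 and 206 without 5-month replicates 1, 3 and 4. It was 16 with lane as a term and 868 without the outlying pair, so the number in common depends on these choices too. A single feature, gene106, was called in opposite directions, and it was singled out after its values were seen. It has 1 transcript of 1874 bp.

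In apple gene106 held 9.83, 9.96, 10.9, 12.6 and 9.95 CPM in the 3-month replicates and 7.21, 6.99, 7.73, 7.43 and 7.004 CPM in those of 5 months. In hawthorn it held 9.98, 8.23, 7.43, 9.47 and 6.86 CPM at 3 months and 13.8, 10.2, 12.8, 10.2 and 12.4 CPM at 5 months. The groups did not overlap in either host, and they moved in opposite directions. The log2 fold changes were -0.55 (SE 0.130, edgeR adjusted p = 0.0194) in apple and 0.50 (SE 0.129, adjusted p = 0.0255) in hawthorn. The 4-month means were 14.1 ± 1.72 CPM in apple pupae and 12.4 ± 2.02 CPM in hawthorn pupae (SD, n = 5), with overlapping libraries.

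The direct test asked whether the change from 3 to 5 months differed between the hosts. It called 27 of the 13862 features (0.195%), 26 with a lower change in apple (0.188%) and 1 with a higher change (0.00721%). Of the 26, 25 had a lower level at 5 months in apple and a higher one in hawthorn. Their median log2 fold change was -0.67 in apple and 0.63 in hawthorn. At 3 months the 26 stood a median of 0.50 higher in apple than in hawthorn, and at 5 months 0.74 lower (-0.74) on the log2 scale. Of the 27, 13 were also called in apple and 10 in hawthorn. As the 27 were chosen for this difference, these medians describe them.

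The count of 27 moved with single libraries. Leaving out apple replicates 3, 4 and 5 of 3 months gave 12, 6 and 45, and leaving out the first 5-month replicate of apple gave 14. It was 14, 12 and 17 without hawthorn replicates 2, 4 and 5 of 3 months, and 3 and 16 without hawthorn replicates 1 and 4 of 5 months. With lane as a term 0 features were called by edgeR, and 1013 had an unadjusted p under 0.05. At neither month did the hosts share a lane, so within a month lane and host cannot be told apart. All 27 kept their sign with the term, in a fit of the same libraries on which they were chosen. Without the lane term DESeq2 called 106.

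The largest of these differences, among features whose mean log2 CPM reached 1, was in gene10040. In apple it held 3.64, 3.93, 4.03, 5.06 and 1.31 CPM at 3 months and 1.97, 2.00, 1.32, 2.10 and 2.60 CPM at 5 months. In hawthorn it held 3.62, 1.38, 1.90, 1.73 and 2.45 CPM at 3 months and 7.33, 3.77, 5.12, 5.04 and 5.53 CPM at 5 months. The hawthorn groups did not overlap, and the apple groups overlapped through 3-month replicate 5. The change was -0.84 in apple and 1.28 in hawthorn on the log2 scale, a difference of -2.12 (SE 0.435, edgeR adjusted p = 0.0166). The call was lost without apple replicate 4 of 3 months (adjusted p = 0.0577), without hawthorn replicate 1 of 5 months (0.0629) and with lane as a term (0.492).

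The next was gene6, at 3.98, 1.82, 4.204, 3.25 and 2.21 CPM in apple at 3 months and 1.68, 2.46, 1.51, 2.02 and 3.08 CPM at 5 months. Those apple groups overlapped, and the apple change was not called (log2 fold change -0.52, edgeR adjusted p = 0.353). In hawthorn it held 1.98, 1.73, 1.21, 1.41 and 0.840 CPM at 3 months and 5.29, 3.14, 3.33, 3.26 and 4.55 CPM at 5 months, with all values of 5 months above all of 3 months. The hawthorn change of 1.44 on the log2 scale made up the larger part of the difference of -1.96 (SE 0.389, edgeR adjusted p = 0.0131). It lost its call without hawthorn replicate 1 of 5 months (adjusted p = 0.0569) and with lane as a term (0.492).

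The single feature with a higher change in apple was gene12583, and it was named after its values were seen. Its apple values at 5 months were 0, 0.845, 0.942, 0.484 and 15.2 CPM, beside 0.197, 0.527, 0.0876, 0.186 and 1.24 CPM at 3 months. In hawthorn it held 6.63, 17.3, 0.633, 1.89 and 0 CPM at 3 months and from 0.0742 to 0.758 CPM at 5 months. The apple mean at 5 months rested on replicate 5 with 251 reads. The fitted difference of 7.12 (SE 1.63, edgeR adjusted p = 0.0430) was 4.45 without that library, with an adjusted p of 0.205, and the call was lost in 12 of 20 such fits.

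**Figure D5:**
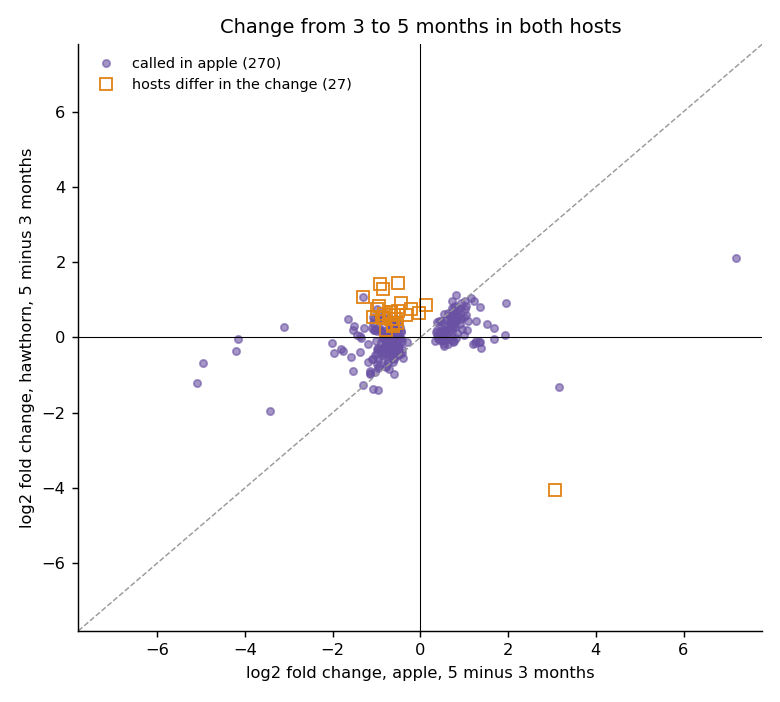
Each filled point is 1 of the 270 features called in apple, with its log2 fold change from 3 to 5 months in apple on the horizontal axis and in hawthorn on the vertical axis, and the dashed line marks equal change. Open squares mark the 27 features whose change differed between the hosts, most of them lower in apple and higher in hawthorn, and the lowest square is gene12583 at 3.07 and -4.05.

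Isoform use was read from the mean transcript length of a feature, which the authors' counting program weights by the abundance of its transcripts. Of 2815 features with at least 2 transcripts and a count of at least 20 in each of the 10 libraries, 0 (0%) differed between 3 and 5 months by limma's moderated test at an adjusted p under 0.05. Of them 191 had an unadjusted p under 0.05, and the smallest adjusted p was 0.264. With a minimum count of 10, 2 of 3071 features were called. The smallest change in isoform use that the test could call was not determined, and the lack of calls does not show that there was no change.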

How the data were processed

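RNA of pools of 10 CNS was sequenced as 100 bp single-end reads from stranded mRNA libraries. Per the labels' protocols, the authors mapped cleaned reads with STAR to the genome of R. zephyria and counted them with RSEM. The sources used here do not give versions, read cleaning, build, annotation or strand setting. As RSEM shares out ambiguous reads by estimated abundance, features with near-identical copies are uncertain, and the reads were mapped to a related species. The deposited expected counts (file headers) were used for all tests, the deposited TPM to compare levels between features, and the deposited transcript length, in bp, for length classes and isoform use. No other per-sample column was used (0).

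Expected counts were rounded (library totals changed by at most 0.000438%). Low features were removed by filterByExpr (minimum count 10, minimum total 15) on the 10 groups, which left 99.9% of the counts. Libraries were TMM-scaled, and edgeR 4.0.16 (quasi-likelihood, robust) was fitted in R 4.3.3 with 1 mean per group over all 50 libraries. Benjamini-Hochberg adjustment ran over all 13862 features, and an adjusted p under 0.05 was a call. The SE was derived from the log2 fold change and its F statistic. The log2 CPM used a prior count of 2. Isoform length was tested with limma 3.58.1. Library measures were compared by two-sided exact permutation with scipy 1.17.1. DESeq2 1.42.0 was an alternative. The fitting steps were tested on simulated data.

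Features were named by rule: called, mean log2 CPM of at least 1, groups that do not overlap (not required for the host difference), largest fold change, at most 2 in each direction. The comparison and the lists were chosen with earlier results of these data known. Lists of marker and pathway genes matched 0 features and were not used. Lane and index were read from run labels kept with the deposited data.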

Additional observations from a re-analysis of the deposited data

Results flagged for a closer look

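The named features in all 10 groups, the measures of whole libraries and the shares of counts were checked for a library far from the others of its group. That made 108 groups of 5 values, and Dixon's test at the 95% level found 8, all of them in named features. Chance gives about 1 such group in 20. For gene292 it was apple replicate 3 at 3 months with 29.6 CPM, on which the size of its fall partly rests. For gene12583 it was apple replicate 5 at 5 months with 15.2 CPM. For gene6377 it was apple replicate 3 at 2 months with 2.64 CPM and hawthorn replicate 2 at 3 months with 3.45 CPM, neither of them an apple library of 3 or 5 months. For gene10040 it was apple replicate 3 at 4 months with 5.23 CPM. In hawthorn libraries outside the months compared, replicate 1 at 2 months held 771 CPM of gene1174, replicate 5 at 6 months held 14.8 CPM of gene292, and replicate 3 at 2 months held 10.9 CPM of gene12583.

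The change from 3 to 5 months differed between the hosts by test in 27 features. On the log2 scale, apple minus hawthorn, the difference was -2.12 in gene10040, -1.96 in gene6, -1.05 in gene106 (SE 0.183, edgeR adjusted p = 0.00875) and 7.12 in gene12583. The call of gene106 held in all 20 fits that left out 1 library (adjusted p up to 0.0229) and was lost with lane as a term (0.492).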

How the results depend on the processing

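All 270 apple features kept their sign in the alternatives where they could be tested, but these fits reused libraries on which the features were chosen. The share with the same sign in the other comparisons was taken, in 7 alternatives, over the features that each fit itself called, from 123 to 704. It stayed between 66.2% and 78.3% for hawthorn and between 91.3% and 94.5% for apple from 2 to 6 months. The number of calls varied between the fits. For apple, 5 against 3 months, it was 167 with no filter on low counts, 73 with only the groups compared, 123 with lane as a term, 641 with the length slope as a term, 704 without the outlying hawthorn pair, 3 in lane 5 alone, 503 with DESeq2, and from 91 to 254 when 1 library was left out. For hawthorn, 5 against 3 months, these counts were 215, 700, 16, 540 and 868, with 662 by DESeq2 and from 155 to 339. For the host difference they were 0 with the lane term, 82 with the slope, 168 without the pair, 106 with DESeq2 and from 3 to 45. For apple, 6 against 2 months, the lane term gave 354, and leaving out 1 library gave from 1582 to 2082. Isoform calls were 2 at a minimum count of 10 and from 0 to 1 when 1 library was left out. The cause of these shifts was not tested. DESeq2's size factors in edgeR gave 267 apple calls. The difference in length slope between 5 and 3 months, of -0.0155, turned to 0.00340 in lane 5 alone and ranged from -0.0366 to 0.00990 when 1 library was left out. The difference in features with a CPM of at least 1, of -44.6, ranged from -94.5 to 6.15. The identifiers behind counts of 5 or fewer are not listed, since they pair with no gene name.

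The replicate numbers are shared by the groups, but nothing in the labels says that a number marks a shared origin. Same-numbered apple libraries of 3 and 5 months deviated from their group means with correlations from 0.0159 to 0.191 (mean 0.100), and 2 of 5 libraries of 3 months and 3 of 5 of 5 months correlated best with their own number. With the replicate block 251 features were called in apple, 238 of them among the 270, and 26 for the host difference. Depth limits low features most: gene6377 rests on 21 to 65 reads per library of the 2 months.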

Other observations

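The 345 features called in hawthorn from 3 to 5 months were also looked up in apple. The hawthorn libraries enter the apple comparison only through the filter, the scaling and the shared spread. Of the 345 features, 283 had the same sign in apple, 175 higher and 108 lower in both hosts. The opposite sign was found in 62, 47 of them lower in apple and higher in hawthorn. The signed median log2 fold change of the 345 was 0.60 in hawthorn and 0.07 in apple. As 222 of them were higher and 123 lower in hawthorn, these medians depend on the balance of directions and do not measure the size of the changes. Choice on the hawthorn values also widens the changes there.

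The spread between replicates was wider in apple at 5 months than in the other 3 groups of these months. The median SD of log2 CPM over the tested features was 0.38 in apple at 5 months and 0.28 at 3 months, beside 0.32 and 0.30 in hawthorn. Over the 270 features called in apple, which a test picks partly for a small spread, it was 0.27 and 0.22.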
